A study of Mus musculus with 12 samples.

Results

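The Polycomb group genes Ezh1, Ezh2, Eed, Bmi1, Ring1, Rnf2 and Phc1 were followed across TEL-JAK2 leukemias and normal thymocytes of the mouse. The 7 genes were chosen by name, and every probe set that the platform annotation assigns to 1 of them was taken. All 7 were on the array, with 9 probe sets among the 12422 tested, of which Rnf2 has 3 and the others 1 each. In all 12 arrays each of the 9 exceeded the control level, here the 95th percentile over non-mouse control probe sets. That level is low. The developmental genes Sox1 and Hoxd13, at mean log2 values of 7.07 and 6.03 in leukemias, also exceeded it in all 12. Ezh1, at 6.03 in leukemias, was no brighter than either. Eed (6.51), Phc1 (6.69), Ring1 (6.79) and the Rnf2 probe sets 93164_at (6.35) and 95912_at (5.93) were dimmer than Sox1 in leukemias. Passing the control level thus does not by itself show expression.

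RNA abundance was measured with Affymetrix expression arrays on total RNA of thymus cell suspensions from C57Bl/6 mice. The 8 leukemia arrays hold leukemic cells, labelled TEL-JAK2, from the thymus of terminally ill mice whose age is not given. TEL-JAK2 is a fusion of the transcription factor TEL (Etv6) with the tyrosine kinase JAK2. The 4 thymocyte arrays hold wild-type thymocytes of mice aged 2 months. Neither suspension is described as sorted, and the sources used here do not name the promoter that drives the fusion. No label says whether each array stands for its own animal, so the p-values cover the spread between arrays, part of which may be technical. In such bulk samples, fewer cells of a type and less RNA per cell cannot be told apart.

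Polycomb proteins keep genes silent through 2 kinds of complex. Polycomb repressive complex 2 (PRC2) methylates histone H3 (the H3K27me3 mark) through the alternative catalytic subunits Ezh2 and Ezh1, and Eed binds the finished mark and is needed for activity. Polycomb repressive complex 1 (PRC1) ubiquitinates histone H2A through Ring1 or Rnf2 (RING1B), paired with a PCGF protein such as Bmi1, and Phc1 joins complexes into larger assemblies. Ezh2 is typical of dividing cells and Ezh1 of resting ones, and E2F factors are known to drive transcription of EZH2 and EED in human cells. In early lymphocytes PRC2 is needed for normal development, and in human T-cell acute leukemia its genes are recurrently lost.

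The upstream sequences of the 3 genes that passed the test below are printed to show what their start regions hold. They run from 250 bases before the annotated start to 30 bases into the transcript, are read 5′ to 3′ on the gene's strand (minus for all 3), and come from RefSeq on GRCm38.p6. The Ezh2 window is chr6:47595001-47595280, that of Eed chr7:89980947-89981226 and that of Rnf2 chr1:151500962-151501241. Capitals mark matches to TTTGGCGC or TTTCCCGC (E2F type), CCAAT, or TTCNNNGAA (STAT type) on either strand.
Ezh2: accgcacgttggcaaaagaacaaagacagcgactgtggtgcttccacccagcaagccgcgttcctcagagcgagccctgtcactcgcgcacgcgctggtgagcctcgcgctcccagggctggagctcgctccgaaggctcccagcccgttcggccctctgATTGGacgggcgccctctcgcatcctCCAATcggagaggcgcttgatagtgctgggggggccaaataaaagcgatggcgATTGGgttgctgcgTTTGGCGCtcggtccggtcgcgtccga
Eed: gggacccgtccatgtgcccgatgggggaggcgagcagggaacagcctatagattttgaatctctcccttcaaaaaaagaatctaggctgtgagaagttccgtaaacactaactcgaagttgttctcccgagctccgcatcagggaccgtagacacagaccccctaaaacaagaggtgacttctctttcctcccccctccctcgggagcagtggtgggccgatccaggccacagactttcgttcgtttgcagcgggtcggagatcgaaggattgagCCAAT
Rnf2: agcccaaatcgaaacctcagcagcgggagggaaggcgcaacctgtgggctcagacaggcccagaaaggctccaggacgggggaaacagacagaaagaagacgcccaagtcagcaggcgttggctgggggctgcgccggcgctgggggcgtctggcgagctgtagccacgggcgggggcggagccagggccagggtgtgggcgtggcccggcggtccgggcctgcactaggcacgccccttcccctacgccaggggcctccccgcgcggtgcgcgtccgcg
The Ezh2 window held 3 CCAAT matches, which begin 90, 64 and 11 bases before the start, and 1 E2F match that begins at base 4 of the transcript. The Eed window held 1 CCAAT match, which begins at base 26 of the transcript, and that of Rnf2 held no match. All 7 members had 1 window each in the table. Only Ezh2 had an E2F match among them, and Phc1 alone had a STAT match, TTCCCAGAA, which begins 58 bases before its start. Of the 32851 windows of this length in the table, 1.46% held an E2F match, 36.1% a CCAAT match and 7.83% a STAT match. The motifs were picked with the sequences in view, and a match is only a run of letters.

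All 9 probe sets had a lower mean in leukemia than in thymocytes, and 3 of them passed the test. These were the single probe sets of Ezh2 and Eed and 1 of the 3 of Rnf2, so 3 of 7 genes had a probe set that fell and 0 one that rose. The two-sided test was limma on log2 intensity with a threshold of 0.05 on the p adjusted by Benjamini-Hochberg across the 12422 probe sets. It called 9.88% of all probe sets lower in leukemia, 4.65% higher and thus 14.5% in either direction. Of all genes, 17.9% had at least 1 probe set called in either direction, and the share with 1 called lower was not computed. Rnf2, with 3 probe sets, had more chances of a call than the other members. By the brightest probe set alone 2 of 7 genes fell, Ezh2 and Eed, as did 11.4% of all genes. Brighter probe sets were called more often. When the 6211 at or above the median brightness were tested alone, 16.3% of them were called lower. Of the 7 member probe sets among them 4 were called. A negative change was seen in 48.1% of all probe sets. The median change of the 9 was -0.34, against 0.01 over all probe sets. In 3 of the 9, those of Ezh2, Eed and Phc1, every leukemia lay below every thymocyte array, which 6.84% of all probe sets did. Without leukemia 4 the count of called probe sets was 5, with Phc1 and a second Rnf2 probe set added, while 11.5% of all probe sets were then called lower.

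**Figure D1:**
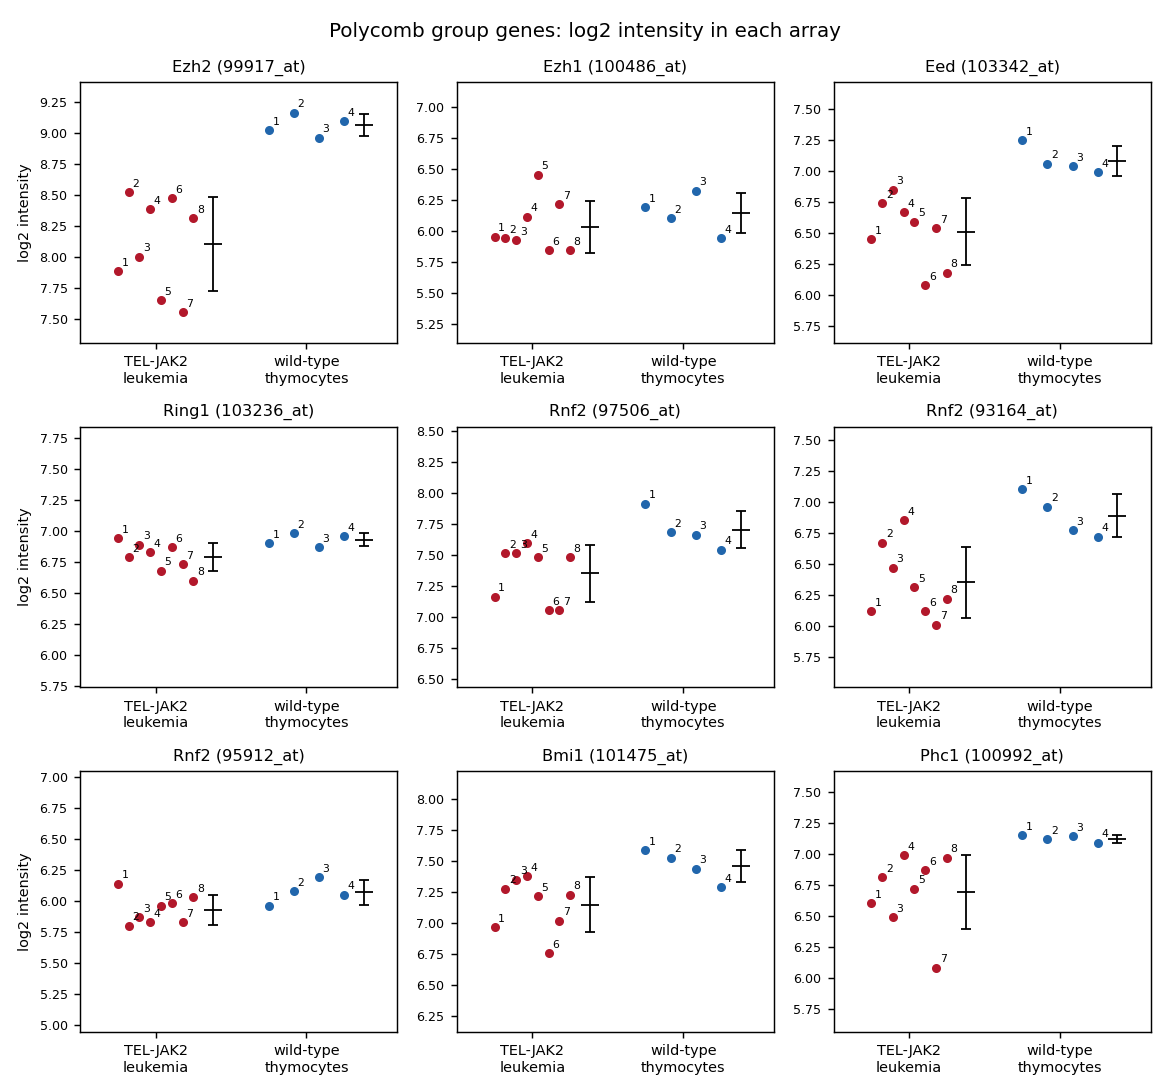
Log2 intensity of the 9 Polycomb probe sets in each array, with array numbers beside the points, TEL-JAK2 leukemias at the left and wild-type thymocytes at the right of each panel, and mean and SD as bars (8 and 4 arrays). All panels span the same height. Ezh2, Eed and Phc1 show no overlap of the groups, and the points of Ezh1, Ring1 and the Rnf2 probe set 95912_at lie close together.

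Ezh2, the main methyltransferase of PRC2, had the largest change of the 7. Its log2 intensity on probe set 99917_at was 7.88, 8.52, 8.0, 8.38, 7.65, 8.47, 7.55 and 8.31 in leukemias 1 to 8, against 9.02, 9.16, 8.96 and 9.09 in thymocyte arrays 1 to 4. The highest leukemia thus lay 0.43 below the lowest thymocyte array. The means were 8.10 ± 0.38 (SD, n = 8) and 9.06 ± 0.09 (SD, n = 4), a change of -0.96 (SE 0.18, limma adjusted p = 0.00224), or 1.95-fold lower in leukemia. On the linear scale the mean intensity was 281.7 in leukemias and 533.2 in thymocytes.

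The leukemias were not alike in Ezh2. Leukemias 1, 3, 5 and 7 lay between 7.55 and 8.0, and leukemias 2, 4, 6 and 8 between 8.31 and 8.52. The same 4 leukemias were the 4 lowest for Phc1. All 8 stayed below the thymocyte arrays in both genes. Within the arrays with a title number of 4 digits, a possible batch, the change of Ezh2 was -0.91 (adjusted p = 0.0141), and within the others, which hold 1 thymocyte array, -1.04 (adjusted p = 0.374).

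Ezh1, the alternative methyltransferase of PRC2, did not pass the test. Its probe set 100486_at ranged from 5.84 to 6.45 in leukemias with a median of 5.94, against 6.19, 6.10, 6.32 and 5.94 in thymocyte arrays. The groups overlap, and leukemia 5 lay above every thymocyte array. The change was -0.10 (SE 0.11, adjusted p = 0.632), with a 95% interval from -0.35 to 0.14.

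By these probe sets Ezh2 fell by more than Ezh1, though the 2 genes were read at unlike brightness. The mean intensity of Ezh1 was 66.1 in leukemias and 70.6 in thymocytes, near the array medians. What the low signal of Ezh1 adds to the unequal change was not tested. The log2 value of Ezh2 minus that of Ezh1 within an array was 1.94, 2.59, 2.08, 2.27, 1.20, 2.63, 1.34 and 2.46 in leukemias 1 to 8, against 2.83, 3.06, 2.64 and 3.15 in thymocyte arrays. All 8 leukemias lay below all 4 thymocyte arrays, though leukemia 6 only just. The difference of the changes was -0.86 (two-sided exact permutation p = 0.0162 over 495 assignments, 0.0323 after adjustment over 2 such tests). The level of this difference depends on how bright each probe set is and is no ratio of transcripts. Within the arrays with a title number of 4 digits it was -0.81 (exact permutation p = 0.0571, where the smallest possible is 0.0286), and within the others -1.06 (exact permutation p = 0.4, where the smallest possible is 0.2). Leukemias 5 and 7 had the smallest differences, with the lowest Ezh2 values and the highest Ezh1 values of the 8.

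**Figure D2:**
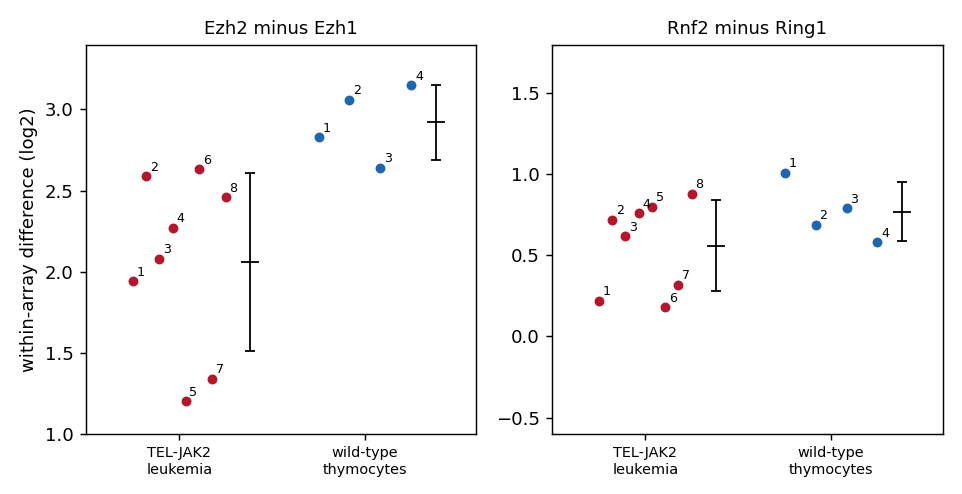
Within-array log2 difference of Ezh2 minus Ezh1 (left) and of Rnf2 minus Ring1 (right) in each TEL-JAK2 leukemia and each wild-type thymocyte array, with array numbers, mean and SD (8 and 4 arrays). Both axes span 2.4 log2 units; the Ezh2 minus Ezh1 values do not overlap between groups, and the Rnf2 minus Ring1 values do.

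Eed, the subunit of PRC2 that reads the methyl mark, fell to 6.51 ± 0.27 (SD, n = 8) in leukemias, against 7.08 ± 0.12 (SD, n = 4) in thymocytes. Its probe set 103342_at was at 6.45, 6.74, 6.85, 6.67, 6.59, 6.08, 6.54 and 6.18 in leukemias 1 to 8, against 7.25, 7.06, 7.04 and 6.99 in thymocyte arrays. The groups did not overlap and were 0.13 apart at their nearest. The change was -0.57 (SE 0.13, adjusted p = 0.00906), or 1.49-fold lower in leukemia. Eed was lowest in leukemias 6 and 8, where Ezh2 was among the 4 higher values, so the order of the leukemias differed between these partners. The 4 lowest Eed values were those of leukemias 6, 8, 1 and 7, the only leukemias without a title number of 4 digits. Thymocyte array 4, the lowest of its group at 6.99, carries none either. The part of that class in the order was not tested. With the class as a block the change of Eed was -0.49 (adjusted p = 0.00414). Within the arrays with a title number of 4 digits the change was -0.41 (adjusted p = 0.0149), and within the others -0.67 (adjusted p = 0.348).

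Rnf2, the more widely used ubiquitin ligase of PRC1, was read by 3 probe sets that did not give the same call. The brightest, 97506_at, ranged from 7.05 to 7.59 in leukemias with a median of 7.48, against 7.91, 7.68, 7.66 and 7.54 in thymocyte arrays. Leukemia 4 alone reached into the thymocyte range, and the change of -0.34 (SE 0.12) did not pass (adjusted p = 0.0752). The second, 93164_at, ranged from 6.01 to 6.85 with a median of 6.26 in leukemias, against 7.10, 6.96, 6.77 and 6.72 in thymocyte arrays, and again leukemia 4 alone overlapped. Its change was -0.54 (SE 0.15, adjusted p = 0.0237), or 1.46-fold lower in leukemia. The dimmest, 95912_at, had a change of -0.14 (SE 0.08, adjusted p = 0.279) and overlapping groups.

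The call of Rnf2 was lost when thymocyte array 1 or 2 was left out. Those 2 runs called 1162 and 1185 probe sets in all, against 1805 with every array. Without thymocyte array 1 the change of 93164_at was -0.47 (adjusted p = 0.101), and without thymocyte array 2 it was -0.52 (adjusted p = 0.0802). Without leukemias 3, 5 and 7 the change was -0.49 (adjusted p = 0.087). Within the arrays with a title number of 4 digits it was -0.37 (adjusted p = 0.107), within the others -0.61 (adjusted p = 0.218), and with the title number class as a block -0.44 (adjusted p = 0.00933).

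Ring1, the second ligase of PRC1, did not pass the test and varied least of the 7 among leukemias. Its probe set 103236_at ranged from 6.60 to 6.94 with a median of 6.81 in leukemias, against 6.90, 6.98, 6.87 and 6.96 in thymocyte arrays. The groups overlap, with 5 of 8 leukemias below all thymocyte arrays. The change was -0.13 (SE 0.07, adjusted p = 0.258), with a 95% interval from -0.29 to 0.02. Rnf2 by its brightest probe set changed by -0.21 relative to Ring1, which did not pass (two-sided exact permutation p = 0.23, also 0.23 after adjustment over 2 tests).

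Bmi1, the PCGF partner of the ligases, known to cooperate with Myc in mouse lymphoma, had a lower mean in leukemia that did not pass the test. Its probe set 101475_at ranged from 6.76 to 7.38 with a median of 7.23 in leukemias, against 7.59, 7.53, 7.44 and 7.29 in thymocyte arrays. Of the leukemias, 6 lay below all thymocyte arrays, and leukemias 3 and 4 overlapped with thymocyte array 4. The change was -0.31 (SE 0.11, adjusted p = 0.088). Leukemias 1, 6 and 7 had the lowest Bmi1 (6.97, 6.76 and 7.02) and also the lowest values of Rnf2 on 97506_at (7.16, 7.05 and 7.05). These 3 leukemias carry no title number of 4 digits, and neither do leukemia 8, at 7.23 for Bmi1 and 7.48 for Rnf2 and thus level with leukemia 5, and thymocyte array 4, the lowest thymocyte array for Bmi1, Eed and both of the brighter Rnf2 probe sets. The part of that class in the levels was not tested beyond the block, under which the change of Bmi1 was -0.24 (adjusted p = 0.0655).

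Phc1, the polyhomeotic subunit of PRC1, had groups without overlap and yet did not pass the test. Its probe set 100992_at was at 6.60, 6.81, 6.49, 6.99, 6.72, 6.87, 6.08 and 6.97 in leukemias 1 to 8, against 7.15, 7.12, 7.14 and 7.09 in thymocyte arrays. The thymocyte values were nearly equal, and the leukemias spread over 0.91. The change was -0.43 (SE 0.14, adjusted p = 0.0589). The adjusted p was 0.0342 without leukemia 4, 0.0289 without leukemia 7 and 0.046 without leukemia 8. In the other 9 of 12 runs that left out an array it did not pass, and without 1 of the thymocyte arrays the adjusted p lay between 0.101 and 0.149.

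**Figure D3:**
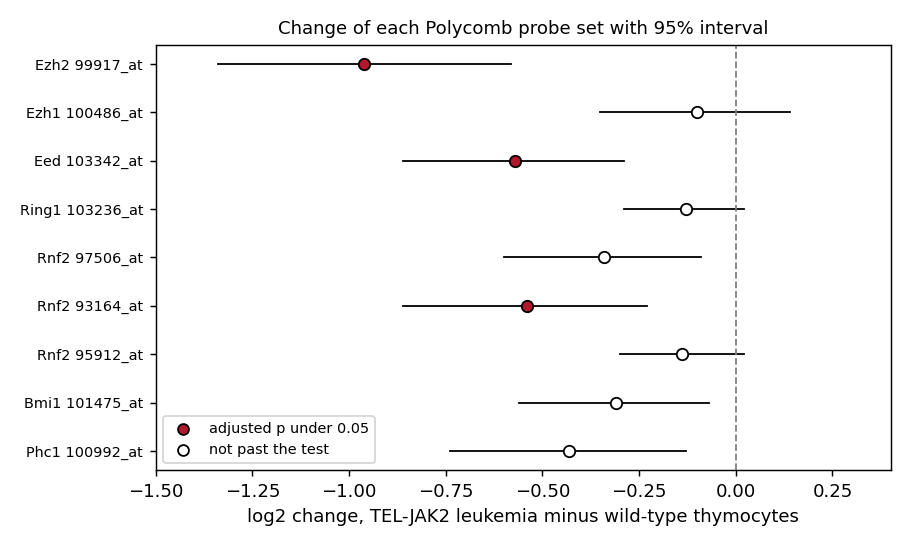
Log2 change of each Polycomb probe set, TEL-JAK2 leukemia minus wild-type thymocytes, with its 95% interval from limma, and filled points for an adjusted p under 0.05. All 9 points lie below 0, from -0.96 for Ezh2 to -0.10 for Ezh1, and the intervals of Ezh1, Ring1 and the Rnf2 probe set 95912_at include 0.

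The members varied more among leukemias than among thymocyte arrays. The SD over 8 leukemias was larger than that over 4 thymocyte arrays in 9 of 9 probe sets, as it was in 78.4% of all probe sets. Ezh2 had SDs of 0.38 and 0.09, and Phc1 of 0.30 and 0.03, in leukemias and thymocytes. No member had a single array far from the rest of its group.

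Genes of cell division and of DNA replication, which mark proliferation, also had lower values in leukemia. Of 22 measured cell division genes 16 fell and 0 rose, with a median change of -0.82, and of 23 DNA replication genes 12 fell and 0 rose, with a median of -0.47. By gene, 11.4% of all genes were called lower and 5.15% higher. Examples are the cytokinesis gene Ect2 (log2 change -1.29), the spindle kinesin Kif11 (-1.30), the checkpoint gene Mad2l1 (-0.79) and the kinase gene Aurka (-1.09). In replication they are the ribonucleotide reductase subunit Rrm2 (-1.72), the licensing factor Cdc6 (-1.32), the origin kinase Cdc7 (-0.96) and the sliding clamp Pcna (-0.91). The mean cell division score, the log2 difference from the thymocyte mean averaged over genes, was -0.35, -0.62, -0.91, -1.11, -1.42, -0.39, -0.68 and -0.96 in leukemias 1 to 8, against -0.15, 0.04, -0.17 and 0.28 in thymocyte arrays. Its order among leukemias matched that of Ezh2 only in part. Leukemia 5 had the lowest score and an Ezh2 value among the 4 lower ones. Leukemias 2 and 6, with scores of -0.62 and -0.39, had the highest Ezh2 values (8.52 and 8.47). In contrast, leukemia 4 had a low score (-1.11) and an Ezh2 value among the 4 higher ones. Leukemia 1 had the highest score and an Ezh2 value among the 4 lower ones. Leukemia 7 had the lowest Ezh2 value and a middle score (-0.68). Leukemia 8 had a low score (-0.96) and an Ezh2 value among the 4 higher ones. The part of proliferation in the Ezh2 and Eed values was not tested.

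Macrophage markers were highest in leukemias 3, 5 and 7, 3 of the 4 with low Ezh2 and Phc1. The score of 13 such genes was 0.31, 0.20, 0.91, -0.16, 1.27, 0.02, 1.44 and 0.03 in leukemias 1 to 8, against 0.18, 0.03, -0.07 and -0.15 in thymocyte arrays. None of the 13 passed the test, 4 were near the control level in both groups (Adgre1, Itgam, Fcer1g and Mrc1), and the summed intensity ranged from 1291 to 6444 in leukemias and from 1339 to 1824 in thymocytes. Without leukemias 3, 5 and 7 the change of Ezh2 was -0.74 (adjusted p = 0.00352), that of Eed -0.66 (adjusted p = 0.0116) and that of Phc1 -0.28 (adjusted p = 0.0759). The unequal change of Ezh2 and Ezh1 was then -0.54 (exact permutation p = 0.0159), less than the -0.86 over all arrays. The score of 7 B-cell markers was also highest in leukemias 3, 5 and 7 (0.54, 0.70 and 0.84). It lay between -0.04 and 0.27 in the other 5 leukemias and between -0.02 and 0.01 in thymocyte arrays, and the summed intensity ranged from 642 to 1349 in leukemias and from 639 to 645 in thymocytes. What macrophage and B-cell markers contribute to the Polycomb values was not tested beyond leaving out these 3 leukemias. Of the 7 B-cell, 4 NK-cell and 4 erythroid markers none passed. All 4 NK-cell markers were near the control level in both groups, so they say little about such cells. The summed intensity of the erythroid markers ranged from 1049 to 6190 in leukemias and from 3285 to 6813 in thymocytes. Of 12 markers of thymic stroma Epcam rose (1.37) and Krt18 fell (-0.40), both near the control level in both groups.

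Defining markers of T cells were bright in both groups. The receptor chain gene Cd3e averaged 10.98 ± 0.34 in leukemias and 11.18 ± 0.07 in thymocytes (SD, n = 8 and 4), and the surface marker Thy1 11.86 ± 0.31 in leukemias and 12.17 ± 0.09 in thymocytes, on the log2 scale. Of 11 measured T-cell identity genes 4 fell, namely the recombinase gene Rag2 (-2.39), the coreceptor gene Cd4 (-1.89), the pre-receptor chain gene Ptcra (-0.96) and the zeta chain gene Cd247 (-0.93). Over all genes 11.4% were called lower. The other 7 of the list did not pass. They were the receptor chain genes Cd3d (0.26), Cd3e (-0.19) and Cd3g (-0.04), the coreceptor genes Cd8a (-0.45) and Cd8b1 (-0.49), Thy1 (-0.31) and Rag1. Rag1 had a change of -2.50 (adjusted p = 0.0906) without overlap of the groups. The score of the list was lowest in leukemias 1 and 7 (-1.88 and -1.36), which were also among the 4 with the lowest Ezh2. What this shift in T-cell genes adds to the Polycomb values was not tested.

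**Figure D4:**
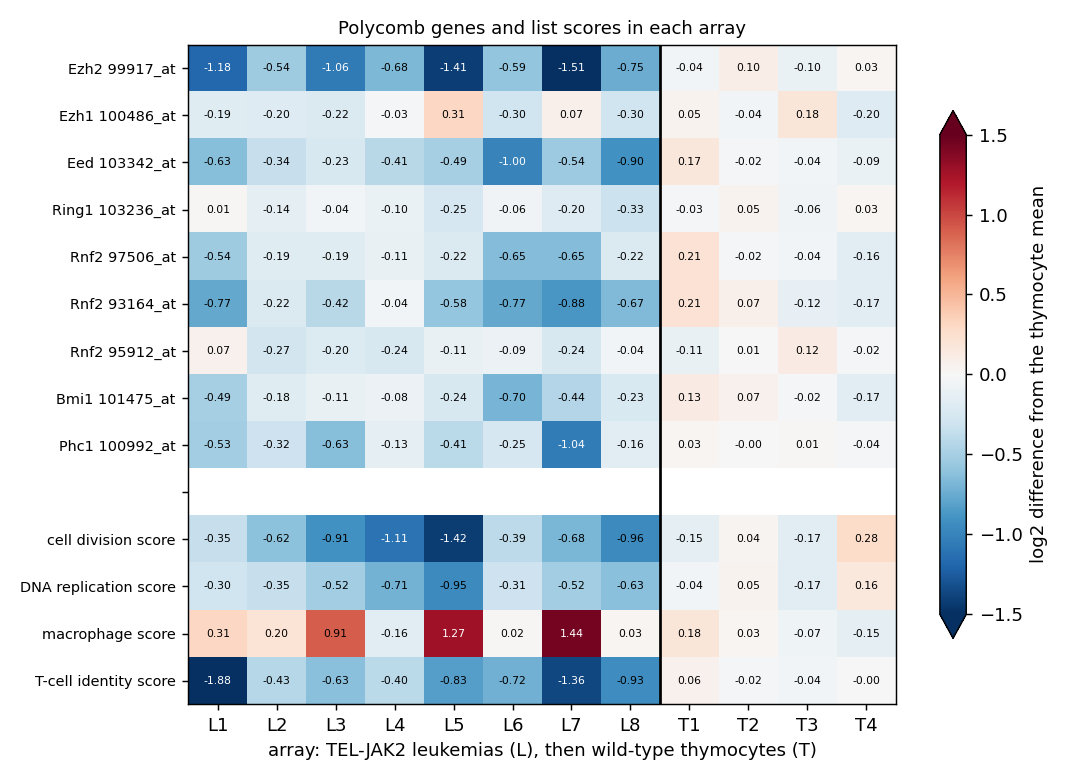
Log2 difference from the thymocyte mean of each Polycomb probe set, and mean scores of 4 gene lists, in 8 TEL-JAK2 leukemias (L1 to L8) and 4 wild-type thymocyte arrays (T1 to T4). Blue is lower and red higher, with the value in each cell. Ezh2 was below the thymocyte mean in all 8 leukemias, by the most in L7, L5, L1 and L3, while the cell division score was lowest in L5, L4 and L8.

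The other genes of the Polycomb complexes were taken from lists of subunits. Of 55 listed genes 28 were measured by a probe set with 1 gene, and by the brightest such probe set 10 fell, 0 rose and 18 did not pass. Their median change was -0.16, against 0.00 over all genes, of which 11.4% were called lower. The 6211 brighter probe sets hold 25 of the 28. When these 6211 were tested alone, 16.3% of them were called lower, and 10 of the 25 were called. In 4 of the 28 every leukemia lay below every thymocyte array, as in 8.11% of all genes. Of the 10, 4 kept their call whichever array was left out, namely Cbx2, Scmh1, Hcfc1 and Mbd6. The calls of Rbbp4, Usp7 and Ogt were lost without leukemias 3, 5 and 7, and those of Rbbp4 and Tfdp1 within the arrays with a title number of 4 digits. Within the other arrays none of the 10 passed, and Mbd6 was at -0.15 there. Sfmbt2, a relative of the fly recruiter partner Sfmbt on a probe set named for possible cross-hybridization, had a value of 0.68 (SE 0.30, adjusted p = 0.173). It was called higher within the arrays with a title number of 4 digits (0.94, adjusted p = 0.0111) and with array weights (0.87, adjusted p = 0.00346).

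In the PRC2 core, Suz12, the subunit that holds the complex together, fell with Eed and Ezh2. Its brightest probe set 94044_at averaged 6.92 ± 0.17 (SD, n = 8) in leukemias and 7.33 ± 0.20 (SD, n = 4) in thymocytes, a change of -0.42 (adjusted p = 0.0167). Probe set 103746_at gave -0.63 (adjusted p = 0.0136), and the dim 101662_at -0.20 (adjusted p = 0.212). The call on 94044_at was lost without thymocyte array 1, 2 or 3. The histone-binding subunit Rbbp4 fell by 0.35 (adjusted p = 0.0159), a call lost without thymocyte array 2, and its relative Rbbp7 had a value of -0.17 that did not pass. None of the 5 measured accessory subunits passed: Jarid2 had -0.15, Aebp2 -0.19, Phf1 -0.08, Epop 0.15 and Mtf2 0.07, the last with an SE of 0.40.

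In PRC1, the chromodomain subunit Cbx2, which binds methylated H3, averaged 7.11 ± 0.16 (SD, n = 8) in leukemias and 7.68 ± 0.07 (SD, n = 4) in thymocytes. Its change was -0.57 (SE 0.09, adjusted p = 7.6e-04) with no overlap of the groups, and its dimmer probe set gave -0.25 (adjusted p = 0.166). Scmh1, a sex-comb-on-midleg homolog that joins PRC1, fell by 0.57 (SE 0.12, adjusted p = 0.0045), also without overlap. Cbx6 (-0.50), Cbx7 (0.39, near the control level in both groups), Phc2 (-0.14), the Bmi1 relative Pcgf2 (0.33) and Pcgf5 (0.16) did not pass. Among partners of variant PRC1, the deubiquitinase gene Usp7 (-0.56, adjusted p = 0.0334) and the E2F dimer partner Tfdp1 (-0.47, adjusted p = 0.0169) fell. The Usp7 call was lost in 6 of 12 runs that left out 1 array. The Tfdp1 probe set 101959_r_at has a name that marks possible cross-hybridization, as has 101958_f_at with -0.56 (adjusted p = 0.00467). The dim 97565_r_at gave 0.02, and the call of 101959_r_at was lost without thymocyte array 2 or 4.

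Of 6 measured genes around the PR-DUB deubiquitinase, which removes the H2A mark, 3 fell. Called lower were 11.4% of all genes, and 16.3% of the brighter probe sets tested alone. The transcriptional cofactor Hcfc1 was at 8.31 ± 0.18 (SD, n = 8) in leukemias and 8.99 ± 0.12 (SD, n = 4) in thymocytes, a change of -0.68 (SE 0.10, adjusted p = 4.9e-04), and its second probe set gave -0.45 (adjusted p = 0.00701). The sugar transferase gene Ogt (-0.63, adjusted p = 0.0205) and Mbd6 (-0.45, adjusted p = 0.00771) fell as well, Ogt not without thymocyte array 1, 2 or 3. The zinc-finger factor Yy1, related to the fly recruiter Pho, fell by 0.65 (adjusted p = 0.0132), a call lost without thymocyte array 1 or 2, and its other probe set gave -0.22 (adjusted p = 0.0935).

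**Figure D5:**
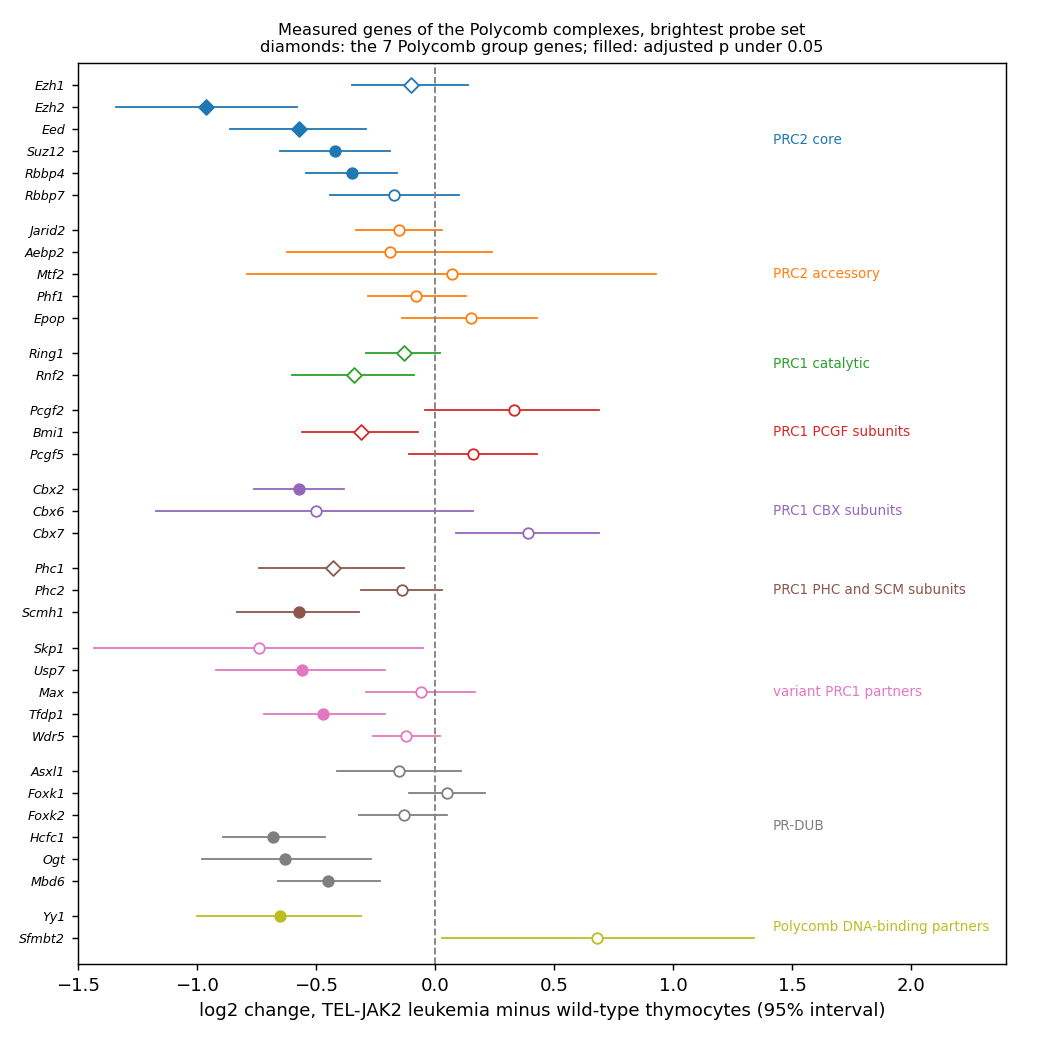
Log2 change, TEL-JAK2 leukemia minus wild-type thymocytes, with 95% interval for the measured genes of the Polycomb complexes by brightest probe set, grouped and coloured by complex. Diamonds are the 7 Polycomb group genes and circles the other 28, filled for an adjusted p under 0.05. Every filled point lies below 0, and those of the PRC2 core are Ezh2, Eed, Suz12 and Rbbp4.

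Most measured genes of the trithorax group, which oppose Polycomb silencing, also fell. The 12 measured had a median change of -0.46, and 7 of them were called lower, 1 higher and 4 neither. Over all genes 11.4% were called lower and 5.15% higher, and of the brighter probe sets tested alone 16.3% were called lower. The subunits of SWI/SNF remodelling complexes Arid1a (-1.02, SE 0.13, adjusted p = 1.6e-04), Smarca4 (-0.91, SE 0.19), Smarcc1 (-0.68) and Pbrm1 (-0.67, SE 0.13) fell. So did the histone H3K4 methyltransferase gene Kmt2a (-0.70), its relative Kmt2e (-0.54) and the menin gene Men1 (-0.37). Dim probe sets of Smarca4 (0.12) and Arid1a (0.02) did not pass. Another probe set of Arid1a (-0.78) and the other probe sets of Pbrm1 and Kmt2a were called lower. Of these, 104218_s_at of Pbrm1 (-0.43, adjusted p = 0.0443) has a name that marks possible cross-hybridization. Its mean log2 value was 3.78, where the control level was at least 5.20. The remodeller gene Chd7 rose by 0.60 (adjusted p = 0.0266), near the control level in both groups, a call lost when any 1 of the 4 thymocyte arrays was left out. The calls of Kmt2a, Kmt2e and Smarcc1 were also lost without thymocyte array 1, those of Kmt2e and Smarcc1 without 2 or 3 as well, and those of Smarcc1 and Chd7 without leukemias 3, 5 and 7. The call of Men1 was lost within the arrays with a title number of 4 digits, with a change of -0.38. Within the arrays without a title number of 4 digits Kmt2e was at -0.24 and Smarcc1 at -0.30, and none of the 8 passed there. The H3K27 demethylase gene Kdm6a had a value of -0.63 and did not pass (adjusted p = 0.231).

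By their brightest probe sets, known targets of Polycomb silencing showed no increase past the test. Of 65 listed genes, mostly Hox genes and other developmental regulators, 50 were measured, 0 rose, 2 fell and 48 did not pass, with a median change of 0.04. Over all genes 5.15% were called higher, so few rises would be looked for among 50. The 2 that fell, Cdkn1c (-0.39) and Hoxa5 (-0.28), were near the control level in both groups, as were 23 of the 50. Among dimmer probe sets of these genes 1 passed, 96417_s_at of the homeobox gene Hoxb8, at 4.44 ± 0.15 (SD, n = 8) in leukemias and 4.17 ± 0.10 (SD, n = 4) in thymocytes (0.27, SE 0.09, adjusted p = 0.0497). It is near the control level in both groups and named for possible cross-hybridization, and the brighter 96418_r_at gave -0.10 (adjusted p = 0.549). Cdkn2a, the cell cycle inhibitor locus that Bmi1 is known to repress, averaged 5.88 in leukemias and 5.73 in thymocytes and did not pass (0.16, adjusted p = 0.222).

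For each member the genes that followed it most closely were sought over the 12 arrays, as the Pearson correlation of deviations from the group means among 4812 or 4813 other genes at or above the median brightness. This measure leaves out the difference between the groups, rests mainly on the 8 leukemias, and the arrays share preparation and hybridization. Closest to Ezh2 were Hdac6 and Mns1 (r = 0.96 each) and Strbp (0.95). Closest to Eed were Gpn1 (0.95), Usp39 (0.94) and Tmod3 (0.93), the last on a probe set named for possible cross-hybridization. Closest to Rnf2 were Tgif1 and Ufm1 (0.95 each) and Thap12 (0.94), and closest to Bmi1 were Cpsf4 (0.96), 1110004F10Rik (0.95) and Rngtt (0.94). Phc1 was followed by Pknox1 (0.94), R3hcc1 and Eci2 (0.92 each), Ring1 by Stxbp2 (0.91), Fbxw2 (0.88) and Smdt1 (0.87), and Ezh1 by Aard (0.90), Arpc2 (0.89) and Apobec1 (0.87). The next gene in each order was close behind, with r between 0.84 and 0.95. No member of the 7 was among the 3 closest to another. With only 3 places among so many genes, this does not show that the members vary apart, and correlations between members are not given here.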

How the data were processed

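Each array has 1 deposited intensity per probe set on a linear scale. RMA made these values, per the submitters' processing notes, and the sources used here give neither its version nor later steps. All were above 0, array medians lay between 66.48 and 70.18, and they were converted to log2 without an offset. Of 12488 probe sets, 66 controls were left out. Probe sets were named through the platform annotation (1 gene for 10833, several for 396, none for 1193), and 10817 matched a RefSeq gene of GRCm38.p6. A gene of a list is read by its brightest single-gene probe set. Near the control level means that a group's mean lay below the 95th percentile of 19 non-mouse controls.

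Groups were compared with limma 3.58.1 in R 4.3.3 (lmFit, eBayes, no covariate), and every adjusted p for a gene comes from that fit. The fit was tested on simulated data. The members, lists and tests were chosen with earlier results of these data known. Named are all members, every changed gene of the Polycomb, H3K27 demethylase and trithorax lists, up to 4 changed genes with the largest statistic in each other list, and the 3 genes closest to each member. Other list members were named after their values were seen. Alternatives were quantile normalization, median centring, an offset of 16, leaving out each array, leaving out leukemias 3, 5 and 7, title number classes alone or as a block, the brighter probe sets, trend and robust variance, array weights, an adjusted p under 0.01, and the mean of a gene's probe sets. The number of arrays limits the precision.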

Additional observations from a re-analysis of the deposited data

Results flagged for a closer look

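Among 86 groups of values of the members and the named genes, 2 held an array far from the others of its group by Dixon's criterion, where chance flags about 1 in 20, and none of the 18 groups of the Polycomb members did. Tfdp1 on 101959_r_at was at 7.59 in leukemia 5, the lowest of the 8, with the next at 8.05. Ect2 on 97411_at was at 7.09 in leukemia 2, the highest of the 8, with the next at 6.50.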

How the results depend on the processing

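Over the alternatives run, Ezh2 changed by -1.04 to -0.74 and Eed by -0.67 to -0.41, and both passed the test in 21 of 22, the exception being the arrays without a title number of 4 digits, which hold 1 thymocyte array. The runs that each left out an array called 2 to 5 member probe sets, 2 to 4 member genes, 4 to 10 other Polycomb genes and 1162 to 2044 probe sets in all. Without thymocyte array 1 there were 6 other Polycomb genes and 1162 probe sets, and without thymocyte array 2 there were 4 and 1185. The arrays without a 4-digit title number alone, an alternative chosen after seeing the data, gave 0 member probe sets, 0 member genes, 0 other Polycomb genes and 13 probe sets in all. Array weights gave 7 member probe sets, 5 member genes (Bmi1 and Phc1 added), 15 other Polycomb genes, of which 2 higher (Cbx7 and Sfmbt2), and 3400 probe sets in all. The arrays with a 4-digit number alone gave 9 other Polycomb genes, of which 1 higher (Sfmbt2). An adjusted p under 0.01 left 4 other Polycomb genes and 1008 probe sets in all, with Ezh2 and Eed still called. The unequal change of Ezh2 and Ezh1 was -0.81 in arrays with a 4-digit number (exact permutation p = 0.0571) and -1.06 in the others (exact permutation p = 0.4), where fewer arrays raise the smallest possible p. For the other losses the cause was not tested. Over 939 values of 43 probe sets under alternatives, 843 kept their side of the threshold, 86 lost the call, 10 gained it and 0 turned in sign among called values. No paired analysis was possible because the labels give the groups no shared replicate numbers.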
